A study of Mus musculus with 20 samples.

Results

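The presynaptic active zone and vesicle genes are 44 genes of the release apparatus, taken from the counts by symbol for the known roles of their proteins, in a list drawn up with earlier results of these data known. They comprised 13 genes of active zone scaffolds, 13 of the priming and fusion machinery, 6 calcium sensors, 10 genes of vesicle proteins and 2 vesicular glutamate transporters, of 24421 genes counted in all. RNA-seq was performed on the neocortex (NCX) and the hippocampus (HP) of conditional triple knockout (cTKO) mice, which lack the amyloid precursor protein family in part of their neurons, and of their control littermates. All mice were 3 months old, and each of the 4 groups held 5 of the 20 libraries. The cTKO mice carried floxed alleles of App, Aplp1 and Aplp2 with a Camk2a-Cre transgene, which inactivates the 3 genes in excitatory neurons of the postnatal forebrain, while the tissue also holds interneurons and glia. The controls, which the sample labels call wild type, carried the same floxed alleles without Cre, and mice of both sexes on a mixed C57BL/6J and 129 background were used. The comparisons ask how these genes differ between genotypes in each region, and between the regions in each genotype.

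Transmitter release takes place at the active zone, a protein network on the presynaptic membrane in which RIM, RIM-binding protein, Munc13, ELKS, liprin-α, Bassoon and Piccolo hold vesicles close to calcium channels. A docked vesicle is primed by Munc13 and fuses through the SNARE proteins syntaxin, SNAP-25 and synaptobrevin, with complexins as regulators and synaptotagmins as the calcium sensors. Synapsins tether the reserve pool of vesicles, and the vesicular glutamate transporters fill them in excitatory terminals. Many of these proteins come in families of paralogs, which differ between cell types and brain regions.

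Total counts per library ranged from 12169474 to 25331954, and the 44 genes took between 2.14% and 2.69% of them. Levels are given as counts per 1e6 (CPM) scaled by TMM, the trimmed mean of M-values, over all 20 libraries, and 3 counts corresponded to 0.123 to 0.247 CPM, which covers counting error only. The lowest count of any of the 44 genes in any library was 77, for Cplx3, so that all 44 passed the filter on low counts in every comparison. App was at 331 to 407 CPM in the neocortex of cTKO mice and at 1501 to 1811 CPM in controls, and Aplp1 and Aplp2 also fell in both regions. The labelled regions differed in the summed level of 6 neocortical layer markers. In controls, it was 468 to 535 CPM in the neocortex and 213 to 238 CPM in the hippocampus. In cTKO mice, it was 437 to 483 CPM and 171 to 212 CPM. Of these 6, 5 were lower and 1 higher in the hippocampus of controls at an FDR under 0.05. Sums of 6 hippocampal subfield markers were 313 to 353 CPM in the neocortex and 597 to 833 CPM in the hippocampus of controls. In cTKO mice these sums overlapped, at 381 to 717 CPM and 461 to 622 CPM. There, 4 of the 6 subfield markers were higher and 1 lower in the hippocampus at the same FDR. Both cTKO neocortex library 5 and cTKO hippocampus library 4 held embryonic transcripts, with 610 and 385 CPM summed over 7 genes against at most 3.08 CPM in the other libraries. Control hippocampus library 3 held the most choroid plexus RNA, at 2696 CPM over 5 markers. Calls that change without these libraries are given both ways.

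Per kilobase of merged exons, a rough scale for setting genes side by side, the highest levels in the neocortex of controls were those of genes of the fusion machinery and of a synapsin. Merged exons pool all transcripts of a gene and can be longer than its main mRNA, which lowers the level per kb. Those of Vamp2 came to 3809 bases, in a gene at 69088528 to 69092381, so that the order of genes here is approximate. Snap25, which encodes the plasma membrane SNARE SNAP-25, stood at 603 ± 13 CPM per kb (SD, n = 5), Vamp2 (synaptobrevin 2) at 479 ± 28, Syn1 (synapsin 1) at 441 ± 27 and Cplx1 (complexin 1) at 409 ± 7.2. The range of Snap25 lay above all others, while those of Vamp2 and Syn1, and of Syn1 and Cplx1, overlapped. The scaffolds were lower. Bsn (Bassoon) was at 63.0 ± 3.5 CPM per kb, Rims1 (RIM1) at 38.0 ± 1.1, Pclo (Piccolo) at 30.1 ± 2.4 and Ppfia3 (liprin-α3) at 28.1 ± 1.0. The lowest levels were 3.73 ± 0.13 for Ppfia1 and 2.85 ± 0.23 for Unc13b. In the hippocampus of controls, Cplx2 (complexin 2) came first at 481 ± 38 CPM per kb, with Snap25 at 469 ± 31 and Vamp2 at 450 ± 17 and overlapping ranges.

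In the neocortex, 2 of the 44 genes passed an FDR of 0.05 between genotypes, and both encode active zone scaffolds and fell in cTKO mice. RIM1, the product of Rims1, recruits calcium channels and Munc13 to the release site, and liprin-α3, the product of Ppfia3, is an organizer of the active zone enriched in brain. Of all 13843 genes tested with edgeR's quasi-likelihood fit and Benjamini-Hochberg adjustment, 0.188% passed in either direction and 0.101% were lower. The study had already listed Rims1 and Ppfia3 as lower in both regions, from these same libraries. The list of 44 was drawn up with such results known, so its share of calls is not independent of these data.

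Rims1 was at 285, 284, 273, 288 and 270.4 CPM in the 5 neocortical libraries of controls and at 188, 211, 189.6, 188 and 213 CPM in those of cTKO mice. The genotypes did not overlap, and the spread within each was small beside the gap between them. The level was 28.9% lower in cTKO mice, a log2 difference of -0.49 ± 0.06 (SE, edgeR FDR = 0.00183), with a 95% interval from -0.62 to -0.37.

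Ppfia3 was at 214, 217, 217, 227 and 233 CPM in controls and at 160.3, 166, 154, 171 and 139.7 CPM in cTKO mice. All 5 cTKO libraries again lay below all controls. The level was 28.2% lower, a log2 difference of -0.48 ± 0.06 (SE, edgeR FDR = 0.00246), with a 95% interval from -0.60 to -0.35. Two-sided exact permutation tests of log2 CPM gave p = 0.00794 for both genes, the smallest that 5 against 5 libraries allow. Any gene whose groups do not overlap gets this value, so it restates the lack of overlap. Without cTKO neocortex library 5, the differences were -0.53 for Rims1 and -0.45 for Ppfia3, with FDRs of 0.000442 and 0.00193.

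Both falls were measured in whole tissue, in which fewer cells of a type and less RNA per cell cannot be told apart. The summed level of 7 excitatory neuron markers was 8262 to 9113 CPM in controls and 6558 to 9153 CPM in cTKO mice, and 0 of the 7 passed an FDR of 0.05, with 1 lower at an unadjusted p under 0.05. That sum is mostly Camk2a, the gene whose promoter drives Cre, which stood at 5524 to 6120 CPM in controls and 3984 to 5560 CPM in cTKO mice. Over 9 inhibitory neuron markers the sums were 1376 to 1564 and 1320 to 1720 CPM. Over 6 markers of hippocampal subfields, they were 313 to 353 CPM in controls and 381 to 717 CPM in cTKO mice, and 1 of the 4 tested passed, higher in cTKO mice. The sums of 6 astrocyte markers also did not overlap, though they almost met, at 5168 to 5664 CPM in controls and 4779 to 5168 CPM in cTKO mice, with 0 of the 6 passing. The part of these shifts in the results was not tested.

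Rims1 lies on chromosome 1 at 22285972 to 22806158 and Ppfia3 on chromosome 7 at 45339126 to 45367019, both on the minus strand of GRCm38.p6, the build of the counts. No other RefSeq gene overlaps Rims1. Mtag2 overlaps the start of Ppfia3 on the opposite strand, and its level was below 1 CPM in each of the 4 group means. Because these genes fell together, their promoters are shown, from 250 bases before to 50 bases after the start of the gene, as given by RefSeq for chr1:22806109-22806408 and chr7:45366970-45367269, in the direction of transcription. Capitals mark the GC box, GGGCGG or its reverse complement CCGCCC.
Rims1: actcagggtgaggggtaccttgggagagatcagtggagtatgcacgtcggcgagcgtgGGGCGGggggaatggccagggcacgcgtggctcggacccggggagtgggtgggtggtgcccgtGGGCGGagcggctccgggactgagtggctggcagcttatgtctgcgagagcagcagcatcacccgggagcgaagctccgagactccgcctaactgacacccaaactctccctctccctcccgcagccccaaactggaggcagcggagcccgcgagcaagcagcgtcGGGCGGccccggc
Ppfia3: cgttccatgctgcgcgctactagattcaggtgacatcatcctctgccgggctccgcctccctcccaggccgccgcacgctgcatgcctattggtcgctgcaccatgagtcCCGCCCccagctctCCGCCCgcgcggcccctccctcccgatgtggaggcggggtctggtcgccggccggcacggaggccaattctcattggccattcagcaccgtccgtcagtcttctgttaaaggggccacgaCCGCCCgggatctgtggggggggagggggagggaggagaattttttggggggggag
Each promoter held 3 GC boxes, and neither held a cAMP response element (TGACGTCA, both strands) or a TATA box (TATAAA, both strands). The GC content was 69.3% for Rims1 and 67.3% for Ppfia3, beside medians of 62.3% over the matched promoters of the 44 genes and 52.7% over all promoters. A motif of G and C alone is found more often where the GC content is higher. RefSeq promoters were matched for 35 of the 44 genes, with 47 promoters in all, since some genes have several starts, and not for Rims2, Cask, Snap25, Vamp2, Syt5, Syt7, Doc2a, Doc2b and Syn3. A GC box was held by 30 of these 47 promoters (63.8%), of 28 genes, and by 35.7% of all 32851 promoters in the table. The cAMP response element was found in 1 of the 47, that of Syn1, and in 1.79% of all promoters. The TATA box was found in 3 of the 47 and in 13.6% of all.

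**Figure D1:**
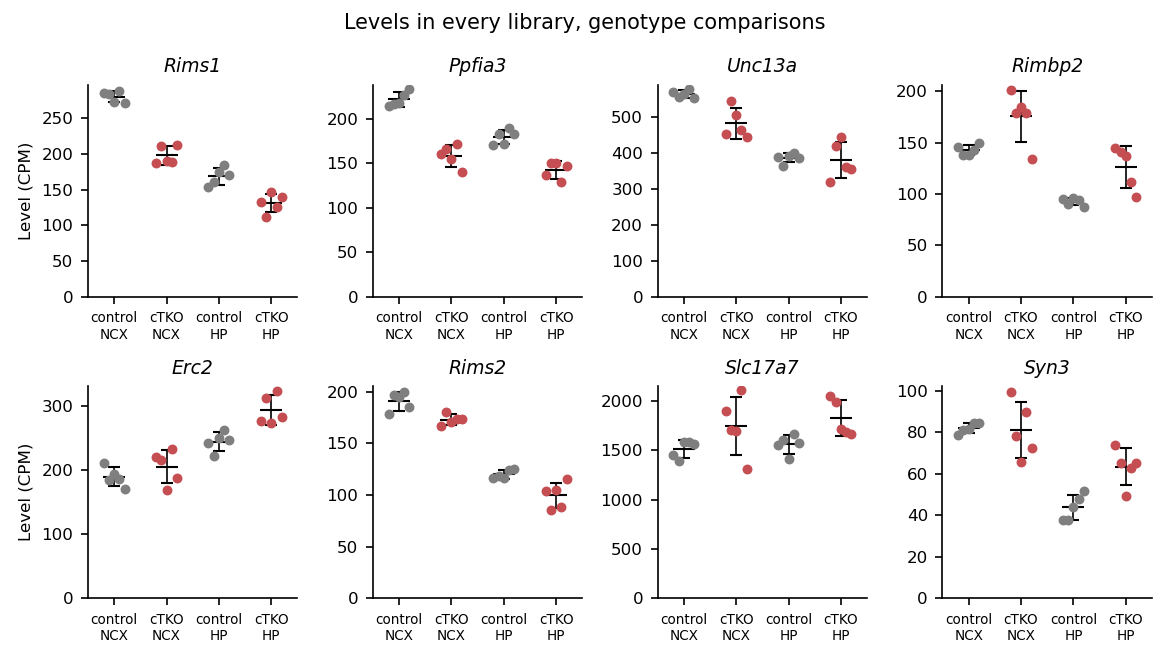
Level in CPM (y axis, from 0) of 8 genes in each of the 5 libraries (points) of the 4 groups (x axis), with the mean and SD in black. The Rims1 and Ppfia3 points of cTKO mice (red) lie below all points of controls (grey) in both regions, while Syn3 is at 37.8 to 51.5 CPM in the hippocampus of controls and at 49.5 to 74.0 CPM in that of cTKO mice.

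In the hippocampus, Ppfia3 was the single gene of the 44 to pass an FDR of 0.05, against 0.489% of the 13702 genes tested, or 0.175% that were lower. It was at 171, 183, 171, 189.9 and 183 CPM in controls and at 137, 151, 150.3, 128 and 146 CPM in cTKO mice. The genotypes did not overlap. The level was 20.7% lower, a log2 difference of -0.33 ± 0.06 (SE, edgeR FDR = 0.0346). This call was near the threshold and was lost in 7 of the 10 fits that left out a single library, namely without any of control hippocampus libraries 1 to 5 or cTKO hippocampus libraries 1 and 2, with FDRs up to 0.121 and differences between -0.35 and -0.30 over the 10 fits. It was also lost with the RNA integrity number as a covariate (FDR = 0.0691) and with the library number as a replicate block (FDR = 0.0923). Over the 7 excitatory neuron markers the summed level was 9404 to 10825 CPM in controls and 7926 to 10177 CPM in cTKO mice, and over the 6 subfield markers 597 to 833 CPM and 461 to 622 CPM. Their part in the result was not tested. Without cTKO hippocampus library 4, the difference in Ppfia3 was -0.30 with an FDR of 0.0432.

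Rims1 was at 154, 161, 174, 184 and 170.2 CPM in the hippocampus of controls and at 132, 112, 146, 126 and 139 CPM in that of cTKO mice. No cTKO library reached the lowest control. The log2 difference was -0.36 ± 0.08 (SE, edgeR FDR = 0.0709), which did not pass by the quasi-likelihood test. It passed by edgeR's exact and likelihood ratio tests, by DESeq2 and in a single fit of all 20 libraries, with FDRs from 0.00149 to 0.00867. Without cTKO hippocampus library 3, which held the highest cTKO level, the edgeR FDR was 0.0481. Of the 10 fits without a single library, 1 passed. Leaving out the highest cTKO library widens a fall by itself, so this fit adds no support for a fall of Rims1.

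Counted at an unadjusted p under 0.05, 9 of the 44 genes were lower and 4 higher in the neocortex of cTKO mice, against 4.86% and 5.57% of all genes. In the hippocampus, 5 were lower and 7 higher, against 5.88% and 6.13%. The neocortical median log2 difference of the 44 genes was -0.01 and the hippocampal one 0.01, beside 0.01 and 0.005 over all genes tested. The set as a whole was therefore centred where all genes were, with single members on both sides. The genotypes did not overlap for 3 genes in the neocortex, against 2.36% of all genes, and for 6 in the hippocampus, against 3.13%.

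**Figure D2:**
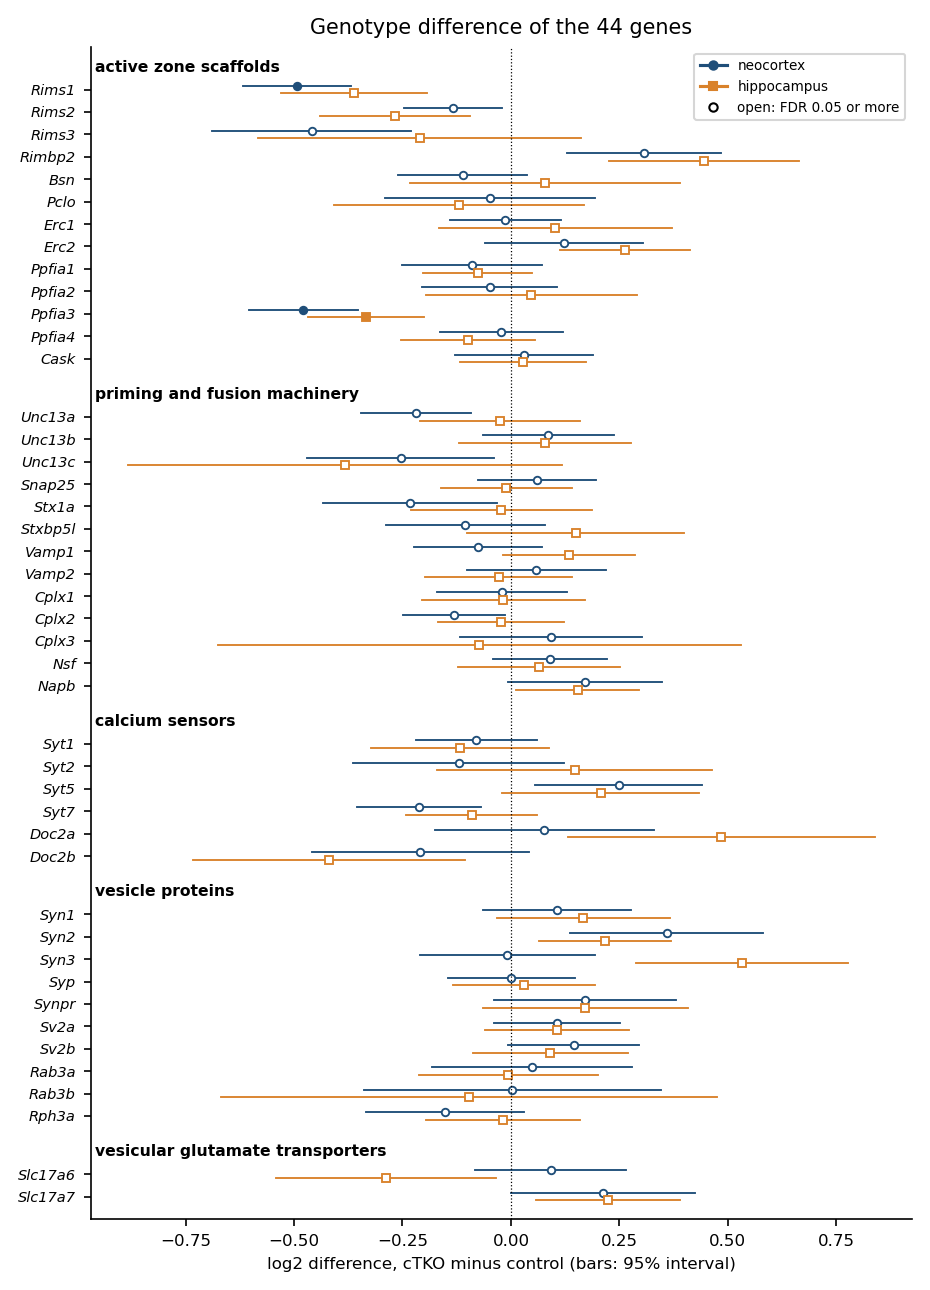
log2 difference of cTKO minus control (x axis) for the 44 genes by role (y axis), in the neocortex (blue circles) and the hippocampus (orange squares), with 95% intervals as bars and filled symbols for an FDR under 0.05. Filled symbols are those of Rims1 in the neocortex and of Ppfia3 in both regions, and most intervals include 0.

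Among the active zone scaffolds, 2 of 13 passed in the neocortex and 1 of 13 in the hippocampus, all lower in cTKO mice, by the quasi-likelihood test, and the median log2 difference of the 13 was -0.05 and -0.08. DESeq2 also called genes that were higher, Rimbp2 in both regions and Erc2 in the hippocampus. The paralogs of Rims1 had smaller or less certain differences. Rims2 (RIM2) was at 178, 197, 195, 199.8 and 185 CPM in the neocortex of controls and at 167, 181, 171, 174 and 173 CPM in that of cTKO mice, with overlap between them. In the hippocampus, it was at 117, 118, 116, 124 and 125 CPM in controls and at 104, 85.7, 104.5, 88.3 and 115 CPM in cTKO mice, with no overlap. The log2 difference in the hippocampus was -0.27 ± 0.08 (SE, edgeR FDR = 0.197), and it passed in the single fit of all 20 libraries (FDR = 0.0497). Rims3 (RIM3), a short RIM without the vesicle-binding zinc finger, had a neocortical level of 43.9 ± 5.2 CPM in controls, against 31.7 ± 4.8 CPM in cTKO mice (SD, n = 5), a log2 difference of -0.46 ± 0.11 (SE, edgeR FDR = 0.114). For Rims3, edgeR's exact test, its likelihood ratio test and then DESeq2 gave FDRs of 0.0129, 0.0127 and 0.00788. Without cTKO neocortex library 1, which held the highest cTKO level of Rims3, the edgeR FDR was 0.0486. That fit too leaves out the highest cTKO library, which widens a fall by itself, and adds no support for one.

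Rimbp2, which encodes a RIM-binding protein that links RIM to calcium channels, had values on the other side. In the hippocampus it was at 95.4, 90.8, 96.1, 93.9 and 87.1 CPM in controls and at 145, 141, 137, 112 and 96.9 CPM in cTKO mice. All cTKO libraries lay above all controls, the lowest by little. The log2 difference was 0.45 ± 0.10 (SE, edgeR FDR = 0.0861), with FDRs of 0.00386 to 0.0229 by the other 3 tests and the fit of all 20 libraries. In the neocortex, Rimbp2 was at 146, 138, 138, 143 and 149.7 CPM in controls and at 201, 179, 185, 179 and 135 CPM in cTKO mice, where library 5, which held embryonic transcripts, was the lowest. The log2 difference there was 0.31 ± 0.08 (SE, edgeR FDR = 0.187), with a DESeq2 FDR of 0.0441. Without that library, it was 0.38 with an edgeR FDR of 0.00631. A rise widens by itself when the lowest cTKO library is left out.

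Erc2, which encodes the neuronal ELKS protein CAST, was at 241, 222, 249, 262 and 247 CPM in the hippocampus of controls and at 276, 312, 273, 323 and 282 CPM in that of cTKO mice. The genotypes did not overlap, and the log2 difference was 0.26 ± 0.07 (SE, edgeR FDR = 0.138, DESeq2 FDR = 0.0142). In the neocortex, Erc2 was at 212, 185, 193, 186 and 171 CPM in controls and at 220.3, 216, 169, 233 and 187 CPM in cTKO mice, with overlap (log2 difference 0.12, edgeR FDR = 0.664). The large scaffolds Bsn and Pclo had log2 differences between -0.12 and 0.08 in the 2 regions, with edgeR FDRs of at least 0.614. The other liprin-α genes, Ppfia1, Ppfia2 and Ppfia4, were between -0.10 and 0.05, and Erc1 and Cask between -0.01 and 0.10.

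In the priming and fusion machinery, 0 of 13 genes passed in either region by the quasi-likelihood test. At an unadjusted p under 0.05, 4 were lower in the neocortex and 1 higher in the hippocampus, against 4.86% and 6.13% of all genes. DESeq2 called 1, Unc13a in the neocortex, and the exact and likelihood ratio tests called 0. Unc13a encodes Munc13-1, the main priming factor of excitatory synapses, which binds RIM. It was at 572, 556, 566, 578 and 553 CPM in the neocortex of controls and at 452, 545, 507, 465 and 445 CPM in that of cTKO mice. The genotypes did not overlap, although cTKO library 2 came close to the lowest control. The log2 difference was -0.22 ± 0.06 (SE, edgeR FDR = 0.187, DESeq2 FDR = 0.0213). In the hippocampus, Unc13a was at 390.2, 365, 392, 401 and 388 CPM in controls and at 320.3, 419.8, 445, 362 and 357 CPM in cTKO mice, with a log2 difference of -0.03 and cTKO libraries on both sides of the controls.

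The SNARE genes Snap25 and Vamp2 differed by -0.03 to 0.06 on the log2 scale, with SEs of 0.06 to 0.08. Stx1a (syntaxin 1A) was at 307 ± 19 CPM in the neocortex of controls and 260 ± 43 CPM in that of cTKO mice (SD, n = 5), a log2 difference of -0.23 ± 0.09 (SE, edgeR FDR = 0.403). Its highest cTKO value came from library 3, and without that library the difference in Stx1a was -0.33 with an FDR of 0.0290. Leaving out the highest cTKO library widens a fall by itself, so this fit adds no support for one. In the hippocampus, the log2 difference in Stx1a was -0.02. Unc13c had the widest interval among the Munc13 genes in the hippocampus, with a log2 difference of -0.38 ± 0.23 (SE, edgeR FDR = 0.560). Cplx1, Cplx2 and Cplx3 were between -0.13 and 0.09 in the 2 regions, with an interval for Cplx3 in the hippocampus from -0.68 to 0.53, where cTKO library 1 stood above the other 4.

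Of the 6 calcium sensors, 0 passed in either region by edgeR's 3 tests or DESeq2. At an unadjusted p under 0.05, 1 was higher and 1 lower in each region. The shares of all genes were 5.57% and 4.86% in the neocortex and 6.13% and 5.88% in the hippocampus. The main synaptotagmin of fast release, Syt1, had a log2 difference of -0.08 ± 0.06 in the neocortex and of -0.12 ± 0.09 (SE) in the other region. The slower sensor Syt7 was at -0.21 ± 0.07 (SE, edgeR FDR = 0.260) in the neocortex, and Syt5 at 0.25 ± 0.09 (SE, edgeR FDR = 0.338). The DOC2 proteins, high-affinity sensors linked to spontaneous and asynchronous release, had opposite signs in the hippocampus. Doc2a was at 0.48 ± 0.16 (SE, edgeR FDR = 0.252) and Doc2b at -0.42 ± 0.14 (SE, edgeR FDR = 0.268).

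Of the 10 genes of vesicle proteins, 0 passed in either region by the quasi-likelihood test. At an unadjusted p under 0.05, 1 was higher in the neocortex and 2 in the hippocampus, against 5.57% and 6.13% of all genes. Each of the 3 other tests, exact, likelihood ratio and DESeq2, called Syn3 in the hippocampus and none in the neocortex. Syn3 (synapsin 3), a synapsin that is prominent early in development and in adult neurogenic zones, was at 37.8, 38.0, 44.03, 47.8 and 51.5 CPM in the hippocampus of controls and at 74.0, 65.3, 49.5, 62.8 and 65.0 CPM in that of cTKO mice. It was named after its values were seen, since the lowest cTKO library overlaps the controls. Its log2 difference was 0.53 ± 0.11 (SE, edgeR FDR = 0.0667), with FDRs of 0.00146 to 0.0143 by the other tests and the fit of all 20 libraries. Without cTKO hippocampus library 3, the lowest of its group, the edgeR FDR was 0.0215. Leaving out the lowest cTKO library widens a rise by itself, so that fit adds no support for one. The neocortical level of Syn3 was 82.0 ± 2.3 CPM in controls, against 81.0 ± 13.4 CPM in cTKO mice (SD, n = 5), a log2 difference of -0.01 ± 0.09. Syn3 overlaps 5 genes, among them Timp3, on the opposite strand and at 164 to 182 CPM in the group means, and the strand setting of the counting was not given. Timp3 differed by -0.15 ± 0.11 (SE, edgeR FDR = 0.629) in the hippocampus.

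Syn2 (synapsin 2) had positive differences in both regions. In the neocortex, it was at 584, 527, 543, 516 and 522 CPM in controls and at 819.8, 684, 665, 779 and 492 CPM in cTKO mice, where library 5 was again the exception. The log2 difference was 0.36 ± 0.10 (SE, edgeR FDR = 0.213), and 0.45 with an FDR of 0.00849 without that library. It was the lowest of its group, so leaving it out widens the rise of Syn2 by itself. In the hippocampus, Syn2 was at 790.4, 759.8, 699.7, 782 and 755 CPM in controls and at 879, 929, 849.9, 769 and 974 CPM in cTKO mice, a log2 difference of 0.22 ± 0.07 (SE, edgeR FDR = 0.239). Synaptophysin (Syp), the most used marker of vesicles, was at 1535 ± 36 and 1529 ± 173 CPM in the neocortex and at 1515 ± 90 and 1547 ± 150 CPM in the hippocampus of controls and cTKO mice (SD, n = 5). The 95% intervals of its log2 difference were -0.15 to 0.15 and -0.13 to 0.19.

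The vesicular glutamate transporters are VGLUT1 (Slc17a7), used by neocortical and hippocampal excitatory neurons, and VGLUT2 (Slc17a6), used mainly by thalamic and other subcortical ones. Neither passed in either region. Slc17a7 was at 1554, 1609, 1409, 1661 and 1570 CPM in the hippocampus of controls and at 2049, 1993, 1718, 1687 and 1668 CPM in that of cTKO mice, with no overlap. The log2 difference was 0.22 ± 0.08 (SE, edgeR FDR = 0.260). In the neocortex, Slc17a7 was at 1447, 1389, 1584, 1579 and 1568 CPM in controls and at 1902, 1709, 1699, 2111 and 1309 CPM in cTKO mice, with library 5 below all controls and the other 4 above them. The log2 difference of Slc17a7 there was 0.21 ± 0.10 (SE, edgeR FDR = 0.476), and 0.29 with an FDR of 0.0952 without library 5. Slc17a6 was at 12.7 ± 1.0 CPM in the hippocampus of controls and 10.4 ± 1.6 CPM in that of cTKO mice (SD, n = 5), a log2 difference of -0.29 ± 0.12 (SE, edgeR FDR = 0.351). The summed level of 6 thalamus markers, Slc17a6 among them, was 70.9 to 86.1 CPM and 62.3 to 74.8 CPM in these groups, and its part in the result was not tested.

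The difference between the genotype effects of the regions was tested as an interaction over all 20 libraries, and 0 of the 44 genes passed, against 0.0564% of all genes. Per the study's methods, 5 mice of each genotype gave both tissues, but no source used here says that a number marks the same mouse in both. The likelihood ratio test and DESeq2 also called 0, while the fit with the number as a replicate block called 1, Syn3, with a difference of 0.56 and an FDR of 0.0419. By the quasi-likelihood test without the block, 3 genes were at an unadjusted p under 0.05, against 3.75% of all genes. These were Syn3, with a difference of 0.55 ± 0.15 (SE, edgeR FDR = 0.494), Slc17a6, with -0.37 ± 0.14, and Vamp1, with 0.22 ± 0.10 (SE, edgeR FDR = 0.9999 for both). For Rims1, the effect in the hippocampus minus that in the neocortex was 0.14 with a 95% interval from -0.06 to 0.34, and for Ppfia3 it was 0.15 with an interval from -0.03 to 0.33. A difference between regions in the fall of Ppfia3 or in the values of Rims1 was thus not detected.

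A wider list of presynaptic genes held 80 further symbols, of which 77 were tested between neocortical groups and 78 between hippocampal ones. In the neocortex, 0 passed by the quasi-likelihood test, with 4 higher and 6 lower at an unadjusted p under 0.05, near the shares of all genes (5.57% and 4.86%), while DESeq2 called 6 and the exact and likelihood ratio tests 5 each. The lowest p values were those of Cadps2 (CAPS2, a priming factor of dense-core vesicles), with a log2 difference of -0.41 ± 0.09, Stxbp6 (-0.31 ± 0.07), Sypl2 (-0.66 ± 0.16) and Syt16 (-0.26 ± 0.06), with edgeR FDRs of 0.112 to 0.135. In the hippocampus, 1 passed, as by the exact and likelihood ratio tests, and DESeq2 called 3, Snap91, Sv2c and Syt16. Sv2c, a vesicle glycoprotein of the SV2 family, rose from 13.3 ± 1.8 CPM in controls to 27.0 ± 8.2 CPM in cTKO mice (SD, n = 5), a log2 difference of 1.02 ± 0.18 (SE, edgeR FDR = 0.0236). Its libraries ranged from 11.1 to 15.5 CPM and from 20.1 to 40.6 CPM. The next in order of p were Syt16 (-0.26 ± 0.07), Snap91 (0.25 ± 0.07) and Syndig1 (0.32 ± 0.09), with FDRs of 0.155 to 0.184. The place of Syndig1 in a presynaptic list is doubtful. The SV2 genes among the 44, Sv2a and Sv2b, were between 0.09 and 0.14 in both regions and did not pass.

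Between regions, far more of the 44 genes differed, and most were lower in the hippocampus. In controls, 37 of the 44 passed an FDR of 0.05, 29 lower and 8 higher in the hippocampus, against 59.1% of all genes, 29.2% lower and 29.8% higher. In cTKO mice, 34 passed, 26 lower and 8 higher, against 41.3% of all genes, 21.1% lower and 20.2% higher. All 34 passed in controls too and in the same direction. The median log2 difference was -0.38 in both genotypes, beside 0.01 in controls and -0.003 in cTKO mice over all genes. Over the 78 genes tested of the wider presynaptic list, it was -0.03 in controls and -0.02 in cTKO mice, near that of all genes. Of these 78, 30 were lower and 23 higher in the hippocampus of controls, and 20 and 11 in that of cTKO mice. The median of the 44 genes was thus shifted and that of the wider list was not, although more of its genes were lower than higher. Both lists were chosen with earlier results known, and the difference between them was not tested. The regions did not overlap for 33 genes in controls and 25 in cTKO mice, against 44.2% and 28.8% of all genes. The RNA of the neocortex and of the hippocampus was extracted with different kits, so that region and kit cannot be told apart. Over 9 inhibitory neuron markers, 6 were lower and 0 higher in the hippocampus of controls, with summed levels of 1163 to 1437 CPM against 1376 to 1564 CPM, and over 7 excitatory markers 4 were higher and 3 lower. Other tissue markers differed too. Of 6 astrocyte markers, 4 were higher and 1 lower, and of 6 for microglia, 4 were higher and 0 lower. All 4 choroid plexus markers tested were higher (median log2 difference 3.54), and all 6 striatum markers were lower (median -2.45). The part of these marker shifts in the results was not tested.

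**Figure D3:**
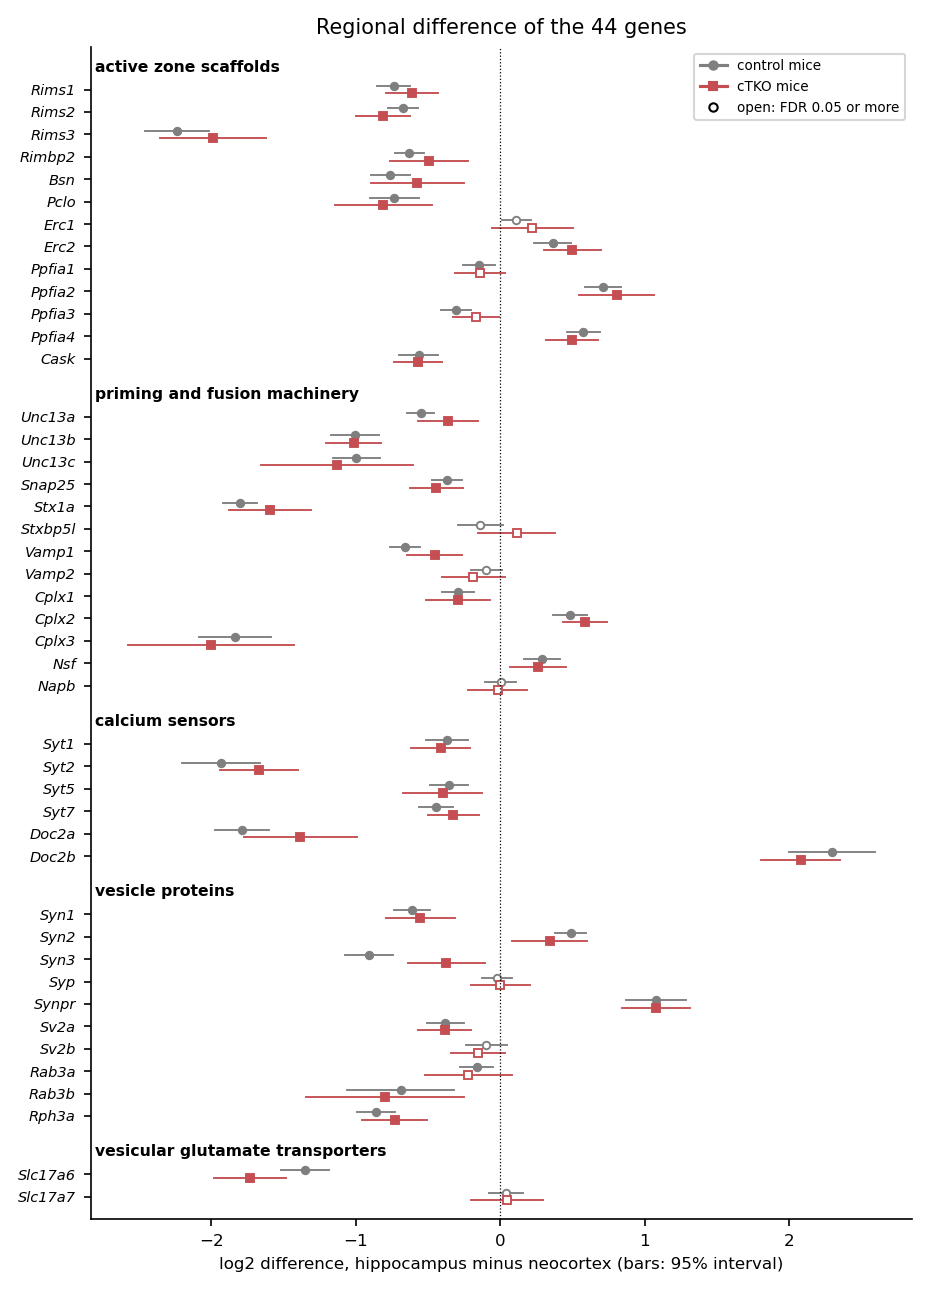
log2 difference of hippocampus minus neocortex (x axis) for the 44 genes by role (y axis), in controls (grey circles) and cTKO mice (red squares), with 95% intervals as bars and filled symbols for an FDR under 0.05. Most symbols lie below 0, and Doc2b at 2.30 and Rims3 at -2.24 in controls mark the ends.

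The 5 largest positive differences in controls were those of Doc2b, Synpr, Ppfia2, Ppfia4 and Syn2. Doc2b was at 21.2, 33.0, 28.7, 31.9 and 32.8 CPM in the neocortex and at 131, 128, 126, 143 and 197 CPM in the hippocampus of controls. In cTKO mice, it was at 26.1, 28.1, 26.5, 23.3 and 22.8 CPM and at 121, 96.7, 98.9, 87.6 and 138 CPM. The regions were wide apart in every library of both genotypes, and Doc2b was 4.91-fold higher in the hippocampus of controls (log2 difference 2.30 ± 0.14, SE, edgeR FDR = 2.49e-09) and 4.23-fold higher in that of cTKO mice (2.08 ± 0.13, FDR = 1.22e-07). Its hippocampal value in control library 5 was the highest, and this library also had the most RNA of the hippocampal subfield markers, 833 CPM over 6 genes against 597 to 680 CPM in the other controls.

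Synpr encodes synaptoporin, a paralog of synaptophysin abundant in mossy fibre terminals of the hippocampus. It was at 90.3, 67.3, 75.9, 62.8 and 64.2 CPM in the neocortex and at 127, 176, 155, 149 and 159 CPM in the hippocampus of controls. In cTKO mice, it was at 90.1, 84.6, 74.5, 83.4 and 70.9 CPM and at 213, 180.1, 141, 161 and 168 CPM. The hippocampus was higher in every library, by 2.11-fold in both genotypes (log2 difference 1.08 ± 0.10 and 1.08 ± 0.11, SE, edgeR FDR = 2.18e-07 and 8.21e-06).

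Ppfia2 and Ppfia4 encode liprin-α2 and liprin-α4. Ppfia2 was at 142, 131, 119, 128 and 125 CPM in the neocortex and at 209, 198, 199, 228 and 228 CPM in the hippocampus of controls, and at 126, 127, 108, 142 and 118 CPM and at 166, 261, 190.5, 233 and 247 CPM in cTKO mice. Its log2 difference was 0.71 ± 0.06 in controls and 0.80 ± 0.12 in cTKO mice, and the regions did not overlap in either. Ppfia4 was at 70.6, 72.2, 66.4, 66.6 and 64.6 CPM in the neocortex and at 96.5, 106, 108, 104 and 94.1 CPM in the hippocampus of controls, and at 73.4, 71.2, 64.1, 67.1 and 57.6 CPM and at 93.4, 102, 88.6, 85.6 and 105.1 CPM in cTKO mice. Its log2 difference was 0.57 ± 0.05 and 0.49 ± 0.08, again with no overlap. Syn2, whose values in every library stand above, was higher in the hippocampus by 0.49 ± 0.05 in controls and 0.34 ± 0.12 in cTKO mice on the log2 scale (SE, edgeR FDR = 8.24e-07 and 0.0377). In cTKO mice the regions overlapped for Syn2, and the call was lost in 7 of the 10 fits without a single library, namely without any of cTKO hippocampus libraries 1, 2, 3 and 5 or cTKO neocortex libraries 2, 3 and 5, with FDRs up to 0.0832. A block for the number of the library gave an FDR of 0.0564 for Syn2.

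The 5 largest negative differences were those of Rims3, Syt2, Cplx3, Stx1a and Doc2a. Rims3 was at 50.9, 44.7, 39.1, 38.4 and 46.5 CPM in the neocortex and at 10.3, 10.5, 8.99, 7.23 and 9.73 CPM in the hippocampus of controls, and at 39.7, 31.1, 27.1, 32.0 and 28.9 CPM and at 10.3, 6.04, 9.69, 5.93 and 8.39 CPM in cTKO mice. The regions were far apart in both genotypes, and the log2 difference was -2.24 ± 0.10 in controls (SE, edgeR FDR = 1.57e-10) and -1.99 ± 0.17 in cTKO mice (SE, edgeR FDR = 2.04e-06).

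Syt2 encodes synaptotagmin 2, a fast calcium sensor of many inhibitory and hindbrain terminals. It was at 36.5, 29.0, 26.0, 25.3 and 29.5 CPM in the neocortex and at 8.74, 6.44, 6.90, 9.65 and 6.80 CPM in the hippocampus of controls. In cTKO mice, it was at 32.5, 26.6, 23.9, 23.7 and 27.3 CPM and at 8.08, 7.49, 9.53, 10.3 and 7.28 CPM. The regions were far apart in both genotypes, by -1.94 ± 0.13 and -1.67 ± 0.13 on the log2 scale.

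Cplx3 encodes complexin 3, a complexin known from retinal ribbon synapses and from deep cortical neurons. It was at 21.8, 21.1, 26.7, 24.3 and 22.6 CPM in the neocortex and at 6.73, 6.61, 5.99, 4.99 and 8.37 CPM in the hippocampus of controls, and at 21.2, 23.5, 28.4, 27.7 and 22.6 CPM and at 11.9, 4.38, 5.86, 3.68 and 5.17 CPM in cTKO mice. Its log2 difference was -1.84 ± 0.12 in controls and -2.0 ± 0.27 in cTKO mice, the latter less certain because hippocampal library 1 stood above the other 4.

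Stx1a was at 307, 280.5, 302, 314 and 333 CPM in the neocortex and at 92.9, 91.5, 83.2, 85.2 and 89.8 CPM in the hippocampus of controls, and at 226, 251.6, 334, 234 and 257 CPM and at 96.0, 93.8, 84.6, 65.2 and 96.2 CPM in cTKO mice. Its log2 difference was -1.80 ± 0.06 in controls (SE, edgeR FDR = 2.56e-12), the lowest FDR of the 44 genes, and -1.59 ± 0.13 in cTKO mice. Doc2a was at 43.1, 37.4, 47.0, 46.8 and 43.98 CPM in the neocortex and at 14.2, 14.3, 11.4, 11.6 and 11.8 CPM in the hippocampus of controls. In cTKO mice, it was at 56.8, 40.3, 46.1, 51.5 and 33.8 CPM and at 25.3, 20.1, 14.4, 14.7 and 14.1 CPM. The regions did not overlap, with log2 differences of -1.79 ± 0.09 and -1.38 ± 0.18.

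**Figure D4:**
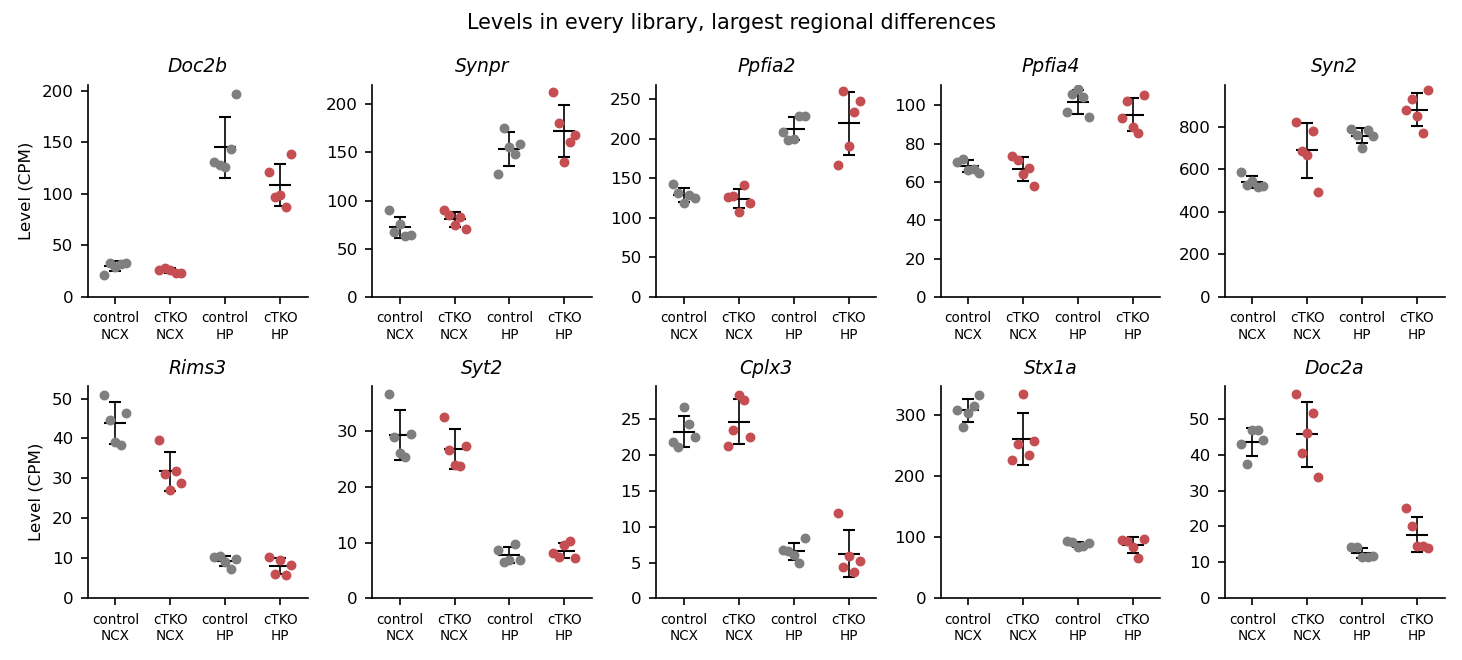
Level in CPM (y axis, from 0) of the 10 genes with the largest regional differences in each of the 5 libraries (points) of the 4 groups (x axis), with the mean and SD in black. Doc2b, Synpr, Ppfia2, Ppfia4 and Syn2 are higher in the hippocampus (HP) and Rims3, Syt2, Cplx3, Stx1a and Doc2a higher in the neocortex (NCX), in controls (grey) and in cTKO mice (red).

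By role, 12 of the 13 scaffolds passed between regions in controls, against 59.1% of all genes. Of the 13, 9 were lower and 3 higher in the hippocampus, against 29.2% and 29.8% of all genes. Those lower were Rims1 (-0.74), Rims2 (-0.68), Rims3, Rimbp2 (-0.63), Bsn (-0.76), Pclo (-0.73), Cask (-0.57), Ppfia3 (-0.31) and Ppfia1 (-0.15), all on the log2 scale, and those higher were Ppfia2, Ppfia4 and Erc2 (0.36). Erc1 was the scaffold that did not pass, at 0.11 ± 0.05 (SE, edgeR FDR = 0.0510). Of these 12, Ppfia1 and Ppfia3 did not pass in cTKO mice, at -0.14 ± 0.08 and -0.17 ± 0.07 (edgeR FDRs of 0.181 and 0.0817). Without cTKO neocortex library 5, which held embryonic transcripts, the difference in Ppfia3 passed in cTKO mice, at -0.21 (FDR = 0.0429). Without control hippocampus library 3, which held the most choroid plexus RNA, that of Ppfia1 no longer passed in controls, at -0.13 (FDR = 0.0502). Erc1 passed in controls without control hippocampus library 1 or control neocortex library 2 (FDR = 0.0371 and 0.0385), and in cTKO mice without cTKO hippocampus library 1 (FDR = 0.0446).

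Of all genes, 29.2% were lower and 29.8% higher in the hippocampus of controls, and 21.1% and 20.2% in that of cTKO mice. Of the 13 genes of the priming and fusion machinery, 8 were lower and 2 higher in the hippocampus in both genotypes. The lower ones included the 3 Munc13 genes, Unc13a (-0.55), Unc13b (-1.01) and Unc13c (-0.998), and the higher ones were Cplx2 (0.48 ± 0.05) and Nsf (0.29 ± 0.06), the ATPase that takes SNARE complexes apart. Stxbp5l, Vamp2 and Napb did not pass, although in controls Stxbp5l passed without control hippocampus library 5 (FDR = 0.0462) and Vamp2 without control neocortex library 1 (FDR = 0.0177). In cTKO mice, the calls of Nsf (0.26 ± 0.09, SE, edgeR FDR = 0.0349) and Cplx1 (-0.30 ± 0.10, SE, edgeR FDR = 0.0339) changed with single libraries. That of Nsf was lost without any of cTKO hippocampus libraries 2 and 5 or cTKO neocortex libraries 1, 2, 3 and 5, with FDRs up to 0.0840, with the replicate block (FDR = 0.0719) and without both libraries with embryonic transcripts (FDR = 0.0579). That of Cplx1 was lost without any of cTKO hippocampus libraries 1, 3 and 4 or cTKO neocortex libraries 2 and 3, with FDRs up to 0.0762, with the RNA integrity number as a covariate (FDR = 0.0784) and without a filter on low counts (FDR = 0.0575). All 5 synaptotagmins and DOC2 genes other than Doc2b were lower, Syt1 by -0.37 ± 0.07, Syt5 by -0.36 ± 0.06 and Syt7 by -0.44 ± 0.06 in controls. In cTKO mice, Syt5 did not pass without cTKO hippocampus library 3 or cTKO neocortex library 4 (FDR = 0.0561 and 0.0618).

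Of the vesicle proteins, 6 were lower and 2 higher in the hippocampus of controls, against 29.2% and 29.8% of all genes. Syn1 differed by -0.61 ± 0.06, Syn3 by -0.91 ± 0.08, Rph3a (rabphilin 3A) by -0.86 ± 0.06 and Sv2a by -0.38 ± 0.06 on the log2 scale, while Syp, at -0.03 ± 0.05, and Sv2b, at -0.10 ± 0.07, did not pass. Syn3 had a smaller value in cTKO mice, at -0.37 ± 0.12 (SE, edgeR FDR = 0.0292), and the difference between genotypes is the interaction given above. That call was lost without cTKO hippocampus library 3, cTKO neocortex library 1 or cTKO neocortex library 4, with FDRs up to 0.0776, and with the RNA integrity number as a covariate (FDR = 0.0573). Rab3b, at -0.80 ± 0.25 in cTKO mice, did not pass there without cTKO neocortex library 3 (FDR = 0.0541). The vesicular glutamate transporters parted. Slc17a6 differed by -1.35 ± 0.08 in controls and -1.73 ± 0.11 in cTKO mice, while Slc17a7 was at 0.04 ± 0.06 and 0.05 ± 0.12 and did not pass.

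Within families, the balance of paralogs differed between regions. On the scale of CPM per kb, Doc2a made up 69.7% ± 4.5 of the DOC2 pair in the neocortex and 12.3% ± 2.6 in the hippocampus of controls (SD, n = 5), and 73.3% ± 4.0 and 20.4% ± 4.5 in cTKO mice. No library of 1 region came within the range of the other. Cplx2 made up 45.1% ± 1.1 of the complexins in the neocortex and 58.8% ± 1.5 in the hippocampus of controls, and Cplx1 took most of the rest. Syn1 held 84.1% ± 1.4 of the synapsins in the neocortex and 72.3% ± 0.49 in the hippocampus, and Syn2 held 14.7% ± 1.4 and 26.8% ± 0.49. Synpr was 2.53% ± 0.39 and 5.31% ± 0.74 of its sum with Syp.

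Among the liprin-α genes, Ppfia3 made up 52.0% ± 1.8 in the neocortex of controls and 44.5% ± 1.3 in that of cTKO mice, with ranges of 49.7% to 54.1% and 42.8% to 46.2%. In the hippocampus, it was 37.2% ± 0.67 in controls and 32.4% ± 2.6 in cTKO mice, ranging from 36.4% to 38.1% and from 30.2% to 35.7%. Among the RIM genes, Rims1 made up 61.4% ± 0.59 in the neocortex of controls and 56.5% ± 1.6 in that of cTKO mice, while Rims2 was at 29.7% ± 1.3 and 35.1% ± 0.99. In the hippocampus, the share of Rims1 was 64.2% ± 1.6 in controls and 62.7% ± 1.7 in cTKO mice, with overlap. These shares restate the levels above and were not tested. They depend on the exon lengths of GENCODE vM21, which may differ from the annotation used for the counts.

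**Figure D5:**
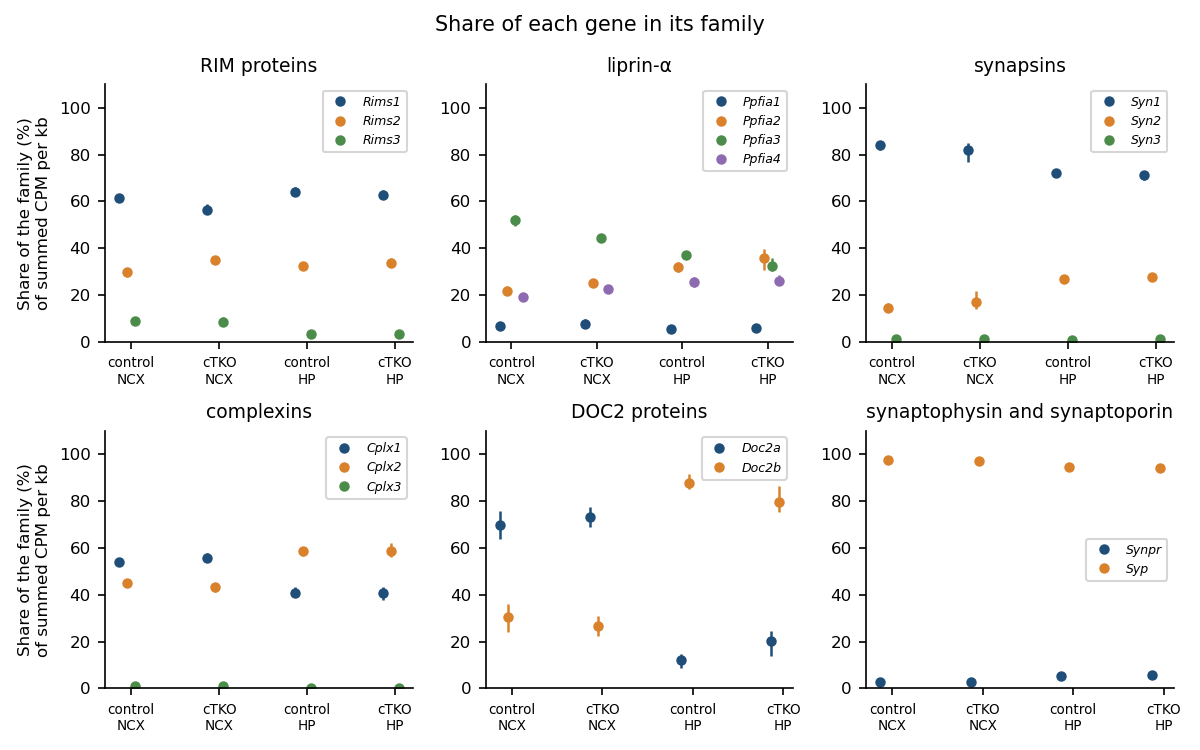
Share of each gene in the summed CPM per kb of its family (y axis, %) in the 4 groups (x axis), as the mean of 5 libraries (points) with the lowest and highest library (lines). Doc2a and Doc2b change places between the neocortex (NCX) and the hippocampus (HP), as do Cplx1 and Cplx2, and Ppfia3 is lower in cTKO mice than in controls in both regions.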

How the data were processed

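The authors prepared poly-A RNA-seq libraries, mapped 100-bp single-end reads to mm10 with STAR 2.5.4a and counted them on genes with HTSeq, whose version, annotation and strand setting are not given in the sources used here. The deposited values are raw counts of 24421 gene symbols in each of 20 libraries, with totals of 12169474 to 25331954. Each deposited column was mapped by its label, and 0 were left out.

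Counts were tested with edgeR 4.0.16 in R 4.3.3: a filter that kept genes over 1 CPM in 5 or more fitted libraries, TMM, estimateDisp and the quasi-likelihood test, with Benjamini-Hochberg adjustment over all genes tested and an FDR under 0.05 as the threshold. The genotypes were compared in each region, the regions in each genotype, and the interaction in all 20 libraries. Standard errors were taken as the log2 difference over the square root of F, and 95% intervals from them. Single genes were compared by two-sided exact permutation tests of log2 CPM (prior count 2). The procedure was tested on simulated data. The 44 genes, the further presynaptic list and the marker lists were chosen with earlier results of these data known.

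Every library is printed for genes with an FDR under 0.05 between genotypes, for the 4 others with the lowest p in each region whose genotypes do not overlap, and for the 5 largest positive and 5 largest negative regional differences in controls among genes passing in both genotypes. Further presynaptic genes are named if they passed, or else the 4 with the lowest p. Other members are given by role. Syn3 was added after its values were seen. Positions and promoters are from RefSeq (GRCm38.p6), and lengths are merged exons of GENCODE vM21. The alternatives were edgeR's exact and likelihood ratio tests, DESeq2 1.42.0, its size factors, 2 other filters, a fit of all 20 libraries, the RNA integrity number as a covariate, the library number as a block, a prior count of 0.5 and each library left out. Leaving out both libraries with embryonic transcripts was added after seeing the data.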

Additional observations from a re-analysis of the deposited data

Results flagged for a closer look

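In 176 groups of 5 libraries, one for each of the 44 genes in each group, 5 held a library whose gap to the next exceeded Dixon's 95% critical value of 0.71, where chance alone gives about 1 in 20 groups. Stxbp5l was at 188 CPM in cTKO neocortex library 3 and at 243 to 263 CPM in the other 4. Rph3a was at 880 CPM in the same library and at 609 to 672 CPM in the others. Cplx2 was at 2144 CPM in cTKO hippocampus library 4, which held embryonic transcripts, and at 2340 to 2418 CPM in the others. Rab3b was at 21.7 CPM in that same library and at 49.96 to 64.9 CPM in the others. Doc2b was at 197 CPM in control hippocampus library 5 and at 126 to 143 CPM in the others.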

How the results depend on the processing

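Over all alternatives and the 44 genes in the 5 comparisons, 44 values lost a call, 36 gained a call and 0 reversed a call. A further 4536 kept their side of the threshold, and the called ones among them kept their direction. The uncalled ones stayed within the spread of the main value, taken as the gene's mean SD of log2 CPM within groups. Their sign was not part of this count and changed for some, such as Rab3a in the neocortex (-0.08 to 0.11 without single libraries). Uncalled values that moved beyond the spread were 4, those of Cplx3 without cTKO hippocampus library 1 and of Erc1 without cTKO hippocampus library 3, in the hippocampus and in the interaction. The falls of Rims1 and Ppfia3 in the neocortex passed under all 9 alternative settings and all 10 fits without a single library.

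In the neocortex, 2 of the 44 genes were called, and DESeq2 called 5. Of all genes, 26 were called, and the exact test called 163, the likelihood ratio test 167, DESeq2 221, no filter on low counts 42 and the RNA integrity number as a covariate 9. In the hippocampus, 1 of the 44 was called. The exact and likelihood ratio tests called 4 each, DESeq2 and the fit of all 20 libraries 5 each, and the RNA integrity number as a covariate 0. Of all genes, 67 were called there, against 257 by the exact test, 259 by the likelihood ratio test, 331 by DESeq2, 189 in the fit of all 20 libraries and 36 with the RNA integrity number. For the interaction, 8 genes were called, and 26 each by the likelihood ratio test and DESeq2. The exact test and the fit of all 20 libraries give no alternative for the interaction. The cause of these differences was not tested.

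Without a single library, 2 to 4 of the 44 genes were called in the neocortex (7 to 133 of all genes), 0 to 3 in the hippocampus (15 to 149), 0 for the interaction (5 to 20), 36 to 38 between regions in controls (7618 to 8026) and 30 to 33 in cTKO mice (4848 to 5650). Without both libraries with embryonic transcripts, 33 of the 44 differed between regions in cTKO mice.

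No source says that the library numbers pair the libraries, and the main tests took them as unpaired. The correlation of same-numbered libraries' deviations was over 0.1 in 2 of 5 pairs in the neocortex, 1 of 5 in the hippocampus, 4 of 5 for the regions in controls and 3 of 5 in cTKO mice. For hippocampal libraries 1 to 4 of controls and 1 to 3 of cTKO mice, the same-numbered neocortical library was also the best match. For cTKO libraries 4 and 5, the correlations between regions were -0.05 and -0.08. The embryonic transcripts lay in hippocampal library 4 and neocortical library 5. The regional libraries may thus be paired in part, and a block by number may join different mice. With the number as a replicate block, 2 of the 44 genes were called in the neocortex, 0 in the hippocampus and 1, Syn3, for the interaction (FDR = 0.0419), and of all genes 12, 58 and 18. Between regions in cTKO mice, the block lost the calls of Nsf (FDR = 0.0719) and Syn2, and it changed no other call of the 44 genes. At this depth, counting error was small for all 44 genes, and 5 libraries a group set the precision.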
